A study of Mus musculus with 9 samples.

Results

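The genes described here are the D-type cyclins, their partner kinases, the inhibitors of these kinases, the retinoblastoma protein and the transcription factor it restrains, in mouse Lewis lung carcinoma cells. They were chosen by gene symbol as 10 genes, Ccnd1, Ccnd2, Ccnd3, Cdk4, Cdk6, Cdkn1b, Cdkn2a, Cdkn2c, Rb1 and E2f1. Of these, 9 were measured, each by 1 feature of the array, among 19505 genes in all, and Ccnd1 was not analysed here. The study compared GFP-labelled 3LL cells, a transplantable Lewis lung carcinoma line whose labelled strain is C57/BL6 mice, after 7 days in 3 settings. They were grown in a culture dish, or they were placed under the skin (subcutaneous) or into the lung of mice and recovered by their GFP signal. Each setting had 3 arrays, 1 per sample, of total RNA hybridised to a whole-transcript array, and all 9 arrays carried the same labelled line, so no group lacked GFP. All samples came from 1 line, and the labels do not say whether samples of a group came from separate dishes or animals. The p-values therefore rest on the spread among 3 samples a group, and that spread may be technical only.

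In G1, the phase before DNA synthesis, D cyclins bind the kinases Cdk4 and Cdk6, and the active pairs phosphorylate the retinoblastoma protein. Phosphorylation frees E2F factors, which switch on genes of DNA replication and the E and A cyclins. Inhibitors of the INK4 family (Cdkn2a, Cdkn2b, Cdkn2c, Cdkn2d) bind Cdk4 and Cdk6 directly, whereas the Cip/Kip inhibitors (Cdkn1a, Cdkn1b, Cdkn1c) bind cyclin and kinase complexes, and in lung carcinomas this pathway is a common site of alteration.

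The signals are log2 values as deposited. Group differences and their standard errors came from 1 limma model over all genes, and a gene was called where its Benjamini-Hochberg adjusted p, over all 19505 genes, was under 0.05. In cells grown under the skin, 5 of the 9 genes were called against the dish, where 12.9% of all genes were called in either direction. Ccnd2, Ccnd3 and Cdk4 fell (6.47% of all genes fell), and the inhibitors Cdkn2c and Cdkn1b rose (6.41% rose). The groups did not overlap for 6 of the 9 genes and for 29.3% of all genes. Background was the 90th percentile of an array's negative-control features. Of the genes without overlap, Rb1 was above background on no array and Cdkn1b on no dish array. In the lung against the subcutaneous site, 6 of 9 genes were called against 15.0% of all genes. There, Ccnd2, Ccnd3, Cdk4 and Cdk6 rose (9.21% of all genes rose), and Cdkn2c and Cdkn1b fell (5.79% fell). The groups did not overlap for 8 of the 9 genes and for 32.5% of all genes. Among them, Cdkn2a and Rb1 were above background on no array, and Cdkn1b on no lung array. In the lung against the dish, 0 of 9 genes were called in the limma model, where 6.78% of all genes were (4.81% rose and 1.97% fell). In that comparison 3 of 9 genes had an unadjusted p under 0.05, as did 21.9% of all genes, and no other tool was run. The last 2 comparisons share the lung samples, and each pair of comparisons shares 1 group, so the 3 sets of values are not independent. The all-gene shares include 12062 genes at background on every array. A fit of only the 6311 genes above background on all arrays of at least 1 group kept 6 of the 9 genes. It called 4 of these 6 under the skin against the dish, beside 2510 of all 6311. For lung against subcutaneous it called 5 of the 6, beside 2645, and for lung against dish 0, beside 1577.

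**Figure D1:**
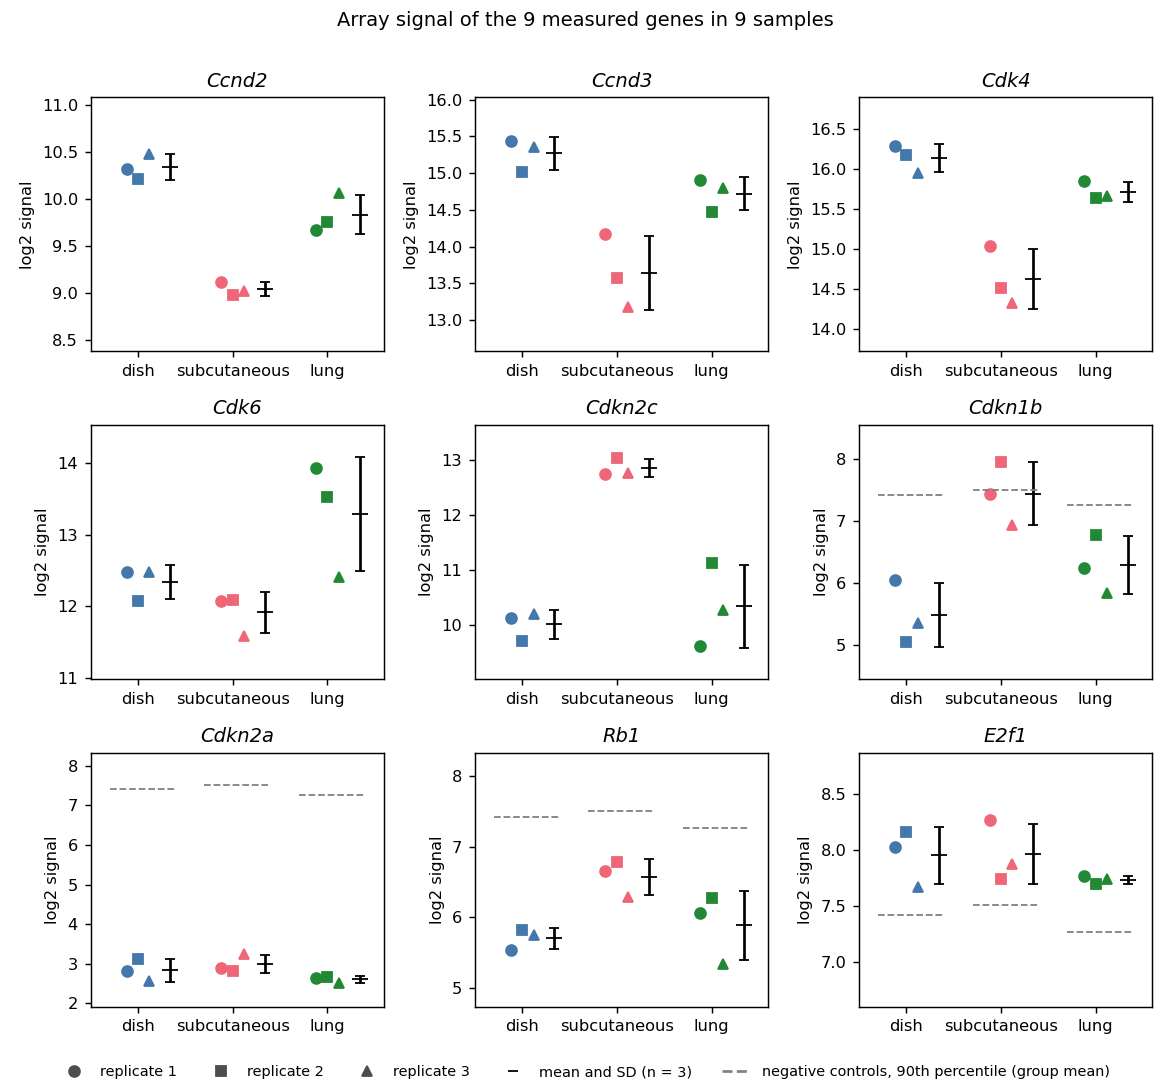
Deposited log2 array signal of the 9 measured genes (vertical axes, each with its own range) in dish, subcutaneous and lung samples. Each point is 1 array, the black bar is the mean with its SD (n = 3), and the dashed line is the group mean of the 90th percentile of the negative-control features, drawn for the 4 genes near or under it. For Ccnd2, Ccnd3 and Cdk4 all subcutaneous points lie under all others, and for Cdkn2c they lie above all others.

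The promoters of the genes with the clearest differences are shown here, because Ccnd3 and Cdk4 moved opposite to Cdkn2c. The windows are the 250 bases before an annotated start in RefSeq (build GRCm38.p6), written 5′ to 3′ on the gene's strand. RefSeq windows were found for 7 of the 10 genes, 10 windows in all, because some genes have more than 1 start. Capitals mark 2 kinds of motif searched on both strands, the E-box CACGTG, which reads the same on both strands, and the E2F word in 4 forms. The forms searched were TTTCCCG at the outset, then also TTTCGCG, besides these TTTGCCG, and lastly TTTGGCG. The motifs do not overlap one another in the windows printed. 
Cdk4, chr10:127063285-127063534, plus strand: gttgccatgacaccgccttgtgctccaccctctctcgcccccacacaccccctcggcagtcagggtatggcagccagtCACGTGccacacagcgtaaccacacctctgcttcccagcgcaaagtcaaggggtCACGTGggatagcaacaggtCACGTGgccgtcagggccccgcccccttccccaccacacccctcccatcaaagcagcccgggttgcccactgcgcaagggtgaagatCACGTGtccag
Ccnd3, upstream start, chr17:47504801-47505050, plus strand: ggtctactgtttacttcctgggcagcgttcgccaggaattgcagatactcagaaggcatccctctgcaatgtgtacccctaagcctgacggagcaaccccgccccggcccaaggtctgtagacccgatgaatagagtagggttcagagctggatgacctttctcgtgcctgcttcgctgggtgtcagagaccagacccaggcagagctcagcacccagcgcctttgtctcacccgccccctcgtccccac
Ccnd3, downstream start, chr17:47593217-47593466, plus strand: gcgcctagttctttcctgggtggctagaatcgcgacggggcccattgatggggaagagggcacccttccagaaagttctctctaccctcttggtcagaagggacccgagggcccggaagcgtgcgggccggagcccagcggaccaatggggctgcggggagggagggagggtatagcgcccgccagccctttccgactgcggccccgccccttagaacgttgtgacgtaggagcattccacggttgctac
Cdkn2c, upstream start, chr4:109666757-109667006, minus strand: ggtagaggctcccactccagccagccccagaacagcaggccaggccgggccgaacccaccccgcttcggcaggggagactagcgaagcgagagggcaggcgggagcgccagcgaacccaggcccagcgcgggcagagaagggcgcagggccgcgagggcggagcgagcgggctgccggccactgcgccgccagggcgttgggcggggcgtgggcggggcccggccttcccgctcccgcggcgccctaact
Cdkn2c, downstream start, chr4:109665373-109665622, minus strand: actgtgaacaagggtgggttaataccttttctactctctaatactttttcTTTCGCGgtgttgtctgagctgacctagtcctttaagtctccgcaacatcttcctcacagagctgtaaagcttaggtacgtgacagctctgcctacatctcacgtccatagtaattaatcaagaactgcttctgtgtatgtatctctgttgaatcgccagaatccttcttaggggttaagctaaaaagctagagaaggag

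The Cdk4 window held 4 E-boxes, the core word bound by MYC and related factors, starting 172, 118, 98 and 11 bases before the annotated start. At least 1 E-box was in 6.02% of the 32851 mouse promoter windows of this length, and at least 4 were in 7 windows (0.021%). The Cdkn2c window at the downstream start held the E2F word TTTCGCG 200 bases before the start, and at least 1 E2F word was in 5.51% of all windows. Among the windows not printed, that of Cdk6 held 1 E-box 220 bases before the start and 1 of Cdkn2a held the E2F word TTTCCCG 99 bases before it. Neither motif was in the other windows of these genes, including those of Ccnd3, Cdkn1b and E2f1. The only window of E2f1 (chr2:154569427-154569676, minus strand) lies inside the annotated gene, whose outermost start is at 154569892. The only window of Cdk6 also lies inside its gene. For both, the bases before the outermost start were not searched. These are matches of letters only.

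Among the D cyclins, which bind and activate Cdk4 and Cdk6, Ccnd2 (cyclin D2) read 10.32, 10.21 and 10.48 in the dish, 9.12, 8.98 and 9.02 under the skin, and 9.68, 9.76 and 10.07 in the lung. The dish samples were the highest, the subcutaneous samples the lowest, and none of the 3 groups overlapped. Subcutaneous signal fell by 1.30 on the log2 scale against the dish (SE 0.22, adjusted p = 0.00177), 2.46-fold lower. Lung signal rose against the subcutaneous site by 0.80 (SE 0.22, adjusted p = 0.0303). In bulk RNA such as this, fewer cells with a transcript and less transcript per cell cannot be told apart.

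Ccnd3 (cyclin D3) read 15.43, 15.01 and 15.36 in the dish, 14.17, 13.57 and 13.17 under the skin, and 14.90, 14.47 and 14.79 in the lung. The order of the groups was that of Ccnd2, again with no overlap between any pair of groups, and the subcutaneous samples spread most (SD 0.50, n = 3). The fall under the skin against the dish was 3.09-fold (log2 difference -1.63, SE 0.28, adjusted p = 0.00184). The lung was 1.08 above the subcutaneous site (SE 0.28, adjusted p = 0.0211).

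Cdk4, the kinase partner of the D cyclins, read 16.29, 16.17 and 15.95 in the dish. It read 15.04, 14.51 and 14.32 under the skin and 15.85, 15.63 and 15.66 in the lung. All subcutaneous samples lay under all lung samples, and these lay under all dish samples. The fall under the skin against the dish was 2.85-fold (log2 difference -1.51, SE 0.25, adjusted p = 0.00135). The rise in the lung against the subcutaneous site was 2.13-fold (log2 difference 1.09, SE 0.25, adjusted p = 0.0111).

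The falls of Ccnd2, Ccnd3 and Cdk4 under the skin passed the threshold in all 19 alternative settings run. Their rises in the lung rested more on single arrays. The Ccnd2 rise was called in 9 of 19 alternatives and lost without subcutaneous replicate 2 or 3 and without any 1 lung array, where the value ran from 0.68 to 0.88. It was also lost with quantile normalization (0.50, adjusted p = 0.195) and with a common upper quartile (0.49, adjusted p = 0.177). The Ccnd3 rise was lost without subcutaneous replicate 2 (1.05) or 3 (0.85), without lung replicate 1 (0.99), and with a common upper quartile (0.77). The Cdk4 rise was lost without lung replicate 1 (1.02, adjusted p = 0.0557).

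Cdk6, the second kinase that D cyclins activate, had its highest group mean in the lung, whereas that of Cdk4 was in the dish. The kinases were not tested against each other. Cdk6 read 12.49, 12.07 and 12.48 in the dish, 12.08, 12.09 and 11.59 under the skin, and 13.94, 13.53 and 12.41 in the lung. Lung replicates 1 and 2 stood above every other sample, while lung replicate 3 lay within the range of the dish samples. The lung rose against the subcutaneous site by 1.37 on the log2 scale (SE 0.35, adjusted p = 0.0183), 2.59-fold, with no overlap. Against the dish, the lung value was 0.95 higher and missed the threshold (95% interval 0.20 to 1.70, adjusted p = 0.126). The subcutaneous difference from the dish was -0.43 (95% interval -1.18 to 0.32, adjusted p = 0.494).

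Lung replicate 3 decided the lung against dish value of Cdk6, which was 1.39 without it (adjusted p = 0.0112). The lung against subcutaneous rise was 1.81 without that array. Removing subcutaneous replicate 3 (1.21) or either of lung replicates 1 (1.05) and 2 (1.25) ended the call. A list of 25 measured genes with very long mRNAs, none of them in the pathway lists used below, moved with these arrays. Of the 25, 15 were above background on all arrays of at least 1 group, and 5 were above it on no array. Its mean log2 signal was 8.70, 8.99 and 7.63 in the lung samples, 7.36, 7.87 and 7.39 under the skin, and 7.30, 6.86 and 6.83 in the dish. Lung replicates 1 and 2 exceeded lung replicate 3 by a mean of 1.32 for Cdk6, and by a median of 1.18 over the long-mRNA list against 0.01 over all genes. With the list's level as a covariate, Cdk6 in the lung was 0.60 above the subcutaneous site (adjusted p = 0.431), the rises of Ccnd2, Ccnd3 and Cdk4 kept values of 1.01, 1.17 and 1.06 but lost the call, and only Cdkn2c and Cdkn1b of the 9 genes were called. The list's level did not overlap between lung and dish samples, so in that comparison the fit can hardly tell it from the group. The standard errors also widened, for Ccnd2 in lung against dish from 0.22 to 0.40. Calls lost with this covariate, here and below, are to be read with that limit. Whether the list's level takes part in the Cdk6 result was not tested beyond this fit.

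**Figure D2:**
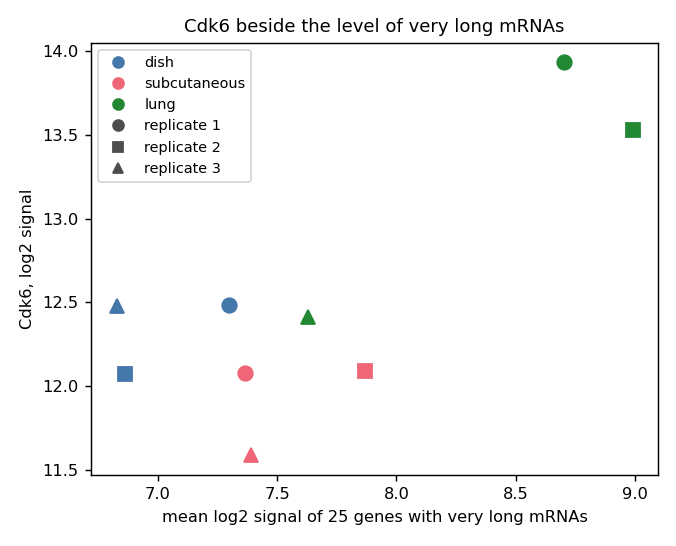
Log2 array signal of Cdk6 (vertical axis) against the mean log2 signal of 25 genes with very long mRNAs (horizontal axis) on the 9 arrays, coloured by group with the marker shape giving the replicate. Lung replicates 1 and 2 lie at 13.94 and 13.53 for Cdk6 with list means of 8.70 and 8.99, apart from the other 7 arrays.

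Cdkn2c, which encodes the INK4 inhibitor p18, had the widest range of group means among the 9 genes. It read 10.12, 9.70 and 10.19 in the dish, 12.75, 13.04 and 12.76 under the skin, and 9.61, 11.13 and 10.26 in the lung. Every subcutaneous sample lay above every other sample, and the lung and dish groups overlapped. The subcutaneous signal was 7.19-fold above the dish (log2 difference 2.85, SE 0.33, adjusted p = 0.000134). The lung was 5.74-fold below the subcutaneous site (log2 difference -2.52, SE 0.33, adjusted p = 0.000507). Both differences were called in all 19 alternatives. The lung against dish difference was 0.32, with a 95% interval from -0.40 to 1.05 (adjusted p = 0.622).

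Cdkn1b, which encodes the Cip/Kip inhibitor p27, was near the array's background. A gene was counted as above background on an array where its signal exceeded the 90th percentile of that array's negative-control features, which lay between 7.20 and 7.73. It read 6.06, 5.06 and 5.37 in the dish, 7.45, 7.95 and 6.94 under the skin, and 6.25, 6.78 and 5.85 in the lung. The subcutaneous samples were the highest, and only 2 of them, and no dish or lung sample, exceeded background. The fitted rise under the skin was 1.95 (SE 0.34, adjusted p = 0.00212), and it was called in all 18 alternatives that kept the gene. Because no dish sample measured it above background, the level under the skin can be given only as at least 1.01-fold higher, that is, against the background percentile of the dish arrays. In the lung it fell against the subcutaneous site, with a fitted difference of -1.15 (SE 0.34, adjusted p = 0.0400) and a bound of at least 1.13-fold lower. Removing dish replicate 3, either of subcutaneous replicates 1 and 2, or either of lung replicates 1 and 3 ended that call, with values from -1.15 to -0.90.

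Cdkn2a, whose locus encodes p16 and, from another reading frame, p19Arf, was not well above background on any array. Its signal lay between 2.51 and 3.24 on all 9 arrays, under the median of the negative controls, which was 4.77 to 5.02. The 3 comparisons gave differences of -0.38, -0.22 and 0.15, with adjusted p-values of 0.324, 0.638 and 0.752, and no level can be compared between groups.

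Rb1, the retinoblastoma protein gene, was also not well above background on any array, so its differences have no fold. It read 5.54, 5.82 and 5.75 in the dish, 6.65, 6.78 and 6.29 under the skin, and 6.06, 6.27 and 5.34 in the lung. All subcutaneous samples lay above all others, but the difference from the dish of 0.87 missed the threshold (SE 0.28, adjusted p = 0.0560), as did the lung difference of -0.69 from the subcutaneous site (SE 0.28, adjusted p = 0.117). The former was called in 4 of 18 alternatives. The latter was called in 1 of 18, with a common upper quartile (-0.99, adjusted p = 0.0252).

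E2f1, the E2F factor that the retinoblastoma protein restrains, read 8.03, 8.16 and 7.67 in the dish, 8.27, 7.74 and 7.88 under the skin, and 7.77, 7.70 and 7.74 in the lung. All 9 values exceeded background, the 3 groups overlapped, and the lung samples were the closest to each other (SD 0.03). The gene lay near background, however. Dish replicate 3 read 7.67 beside a background of 7.59, and subcutaneous replicate 3 read 7.88 beside 7.73. A flat signal this near background does not show equal levels. The subcutaneous difference from the dish was 0.01 with a 95% interval from -0.51 to 0.53 (adjusted p = 0.987). The lung differed by -0.22 from the dish (95% interval -0.73 to 0.30) and by -0.23 from the subcutaneous site (95% interval -0.74 to 0.29).

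Between the lung and the dish, Ccnd2, Ccnd3 and Cdk4 did not overlap, with all lung samples lower, and none was called. The differences were -0.51 for Ccnd2 (95% interval -0.99 to -0.02), -0.55 for Ccnd3 (95% interval -1.16 to 0.06) and -0.42 for Cdk4 (95% interval -0.96 to 0.12). Groups did not overlap in this comparison for 28.4% of all genes. Cdkn1b was 0.80 higher in the lung with neither group above background. With a common upper quartile for all arrays, the Ccnd2 difference was -0.84 and was called (adjusted p = 0.0471). With array weights in the limma fit, Cdk6 (1.32, adjusted p = 0.0101) and Cdkn1b (0.93, adjusted p = 0.0462) were called.

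**Figure D3:**
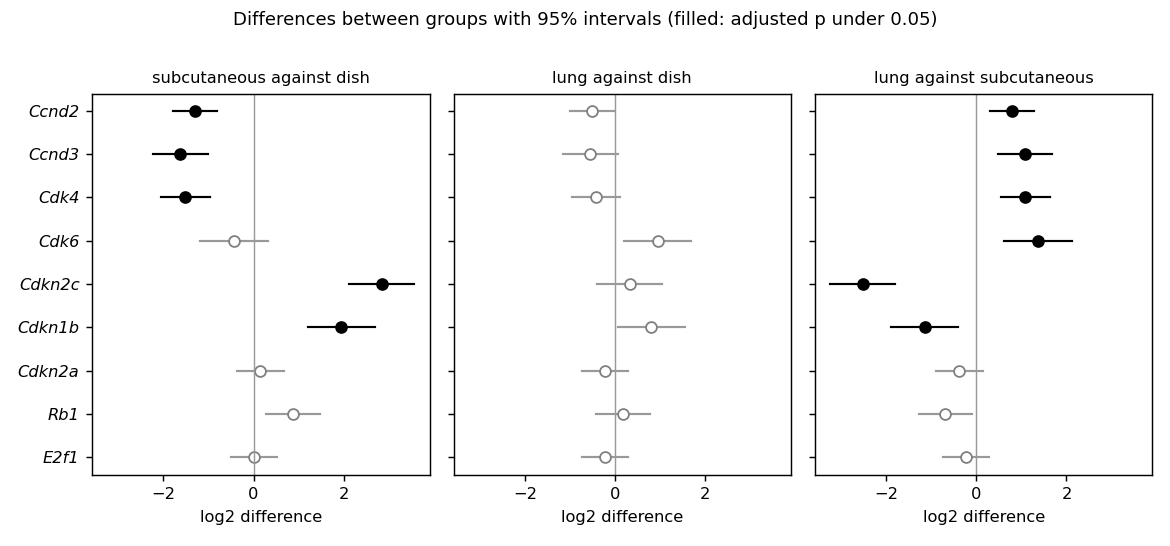
Log2 differences (horizontal axes) of the 9 genes in the 3 comparisons, with 95% intervals from the limma fit, where filled points have an adjusted p under 0.05. Filled points number 5 for subcutaneous against dish, 0 for lung against dish and 6 for lung against subcutaneous.

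The scaling of the arrays bears on the lung comparisons. The median difference of all genes was -0.07 for the lung against either other group and -0.01 for the subcutaneous site against the dish. With a common upper quartile it was -0.38 for lung against subcutaneous and -0.41 for lung against dish, a shift that all genes share. Of all genes called between lung and subcutaneous samples, 61.4% rose as deposited, 53.0% after quantile normalization and 27.7% with a common upper quartile. Between lung and dish these shares were 71.0%, 54.6% and 24.0%. No called gene of the 9 changed direction in these scalings.

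**Figure D4:**
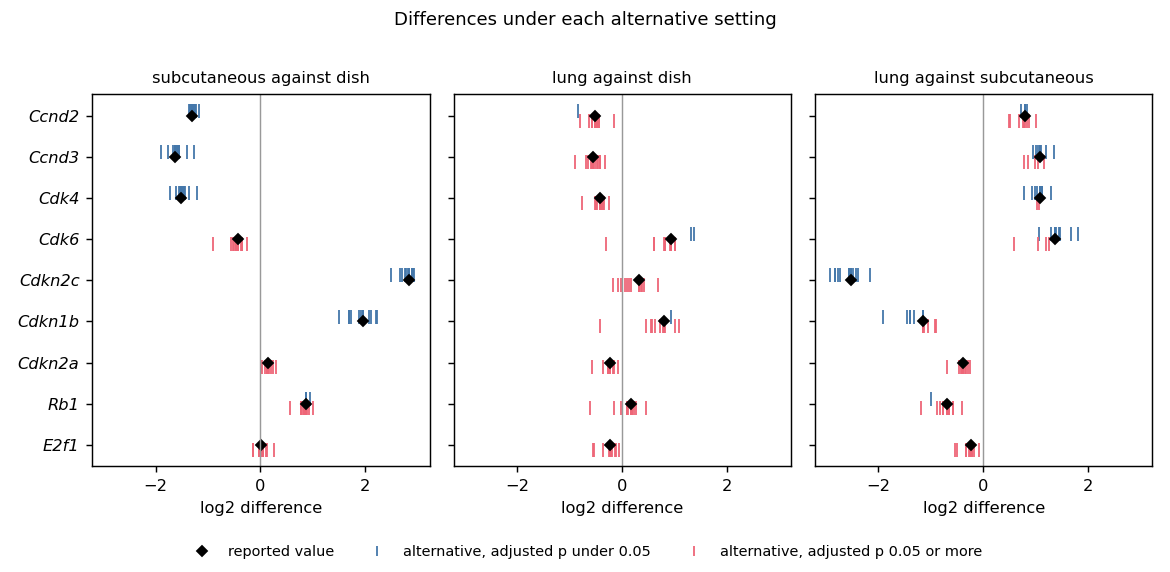
Log2 differences (horizontal axes) of the 9 genes in the 3 comparisons as reported (black diamonds) and under each alternative setting (short vertical lines, blue where the adjusted p was under 0.05 and red otherwise). For subcutaneous against dish the lines of Ccnd2, Ccnd3, Cdk4, Cdkn2c and Cdkn1b are all blue, and for lung against subcutaneous only those of Cdkn2c are all blue.

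The rest of the pathway was described with 6 lists that hold 55 measured genes. The all-gene shares beside the counts include the genes at background on every array. In the fit of 6311 genes, 26 list genes were called under the skin against the dish, beside 2510 of all 6311. For lung against dish that fit called 13 list genes, beside 1577 of all 6311. For lung against subcutaneous it called 23, beside 2645. The counts that follow are from the fit of all 19505 genes. Under the skin against the dish, 2 rose and 17 fell (6.41% and 6.47% of all genes), and the total of 19 was 8 with the RNA integrity number as a covariate. In the lung against the subcutaneous site, 17 rose and 3 fell (9.21% and 5.79% of all genes). In the lung against the dish, 4 rose and 3 fell (4.81% and 1.97% of all genes), and the total of 7 was 2 without any 1 dish array or without lung replicate 1 or 2. The lung against subcutaneous total of 20 was 13 without lung replicate 1. With the level of the long-mRNA list as a covariate, the totals with the lung were 8 against the subcutaneous site and 0 against the dish. Against the dish, that fit can hardly tell the list's level from the group, as given above.

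Of 8 measured later cyclins, kinases and their Cks subunits, 5 fell under the skin against the dish and 0 rose, with a median log2 difference of -0.98 against -0.01 over all genes. The largest fall was that of Cdk1, the mitotic kinase, at -1.40 (SE 0.24, adjusted p = 0.00173). The E cyclins, which drive entry into S phase with Cdk2, fell as well, with log2 differences of -1.26 for Ccne1 (adjusted p = 0.00499) and -0.98 for Ccne2 (adjusted p = 0.0126), and the other 2 were Ccna2 and Cks1b. With RNA integrity as a covariate, the calls of Ccne1 (adjusted p = 0.0725) and Ccne2 (adjusted p = 0.125) were lost, and that of Ccne2 was lost with the long-mRNA level too (adjusted p = 0.0612). In the lung against the subcutaneous site 3 of 8 rose, Cks2, Ccna2 and Ccne1, led by Cks2 at 1.55 (SE 0.24, adjusted p = 0.00131). The Ccne1 rise of 0.82 (adjusted p = 0.0441) was lost without any 1 dish array, without subcutaneous replicate 2 or 3 and without lung replicate 1 or 2. Ccne2 alone in this list was lower in the lung than in the dish and called, at -1.56 (SE 0.23, adjusted p = 0.00193, but 0.294 with the long-mRNA level as a covariate). Cks2 was 0.89 above the dish (adjusted p = 0.0446), and this call was lost without any 1 array other than subcutaneous replicate 3.

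Among the other 5 inhibitors, Cdkn1a, which encodes p21, rose in the lung against the dish by 2.18 (SE 0.36, adjusted p = 0.00387, but 0.342 with the long-mRNA level as a covariate), 4.53-fold. Its mean was 11.85 ± 0.49 in the dish, 12.99 ± 0.72 under the skin and 14.03 ± 0.31 in the lung (SD, n = 3 each). The subcutaneous difference from the dish was 1.14 and missed the threshold (adjusted p = 0.0551). Cdkn2d, the INK4 inhibitor p19, moved opposite to Cdkn2c, the other INK4 gene above background. It fell by 1.25 under the skin against the dish (SE 0.28, adjusted p = 0.00911, but 0.0854 with RNA integrity as a covariate) and rose by 1.48 from the skin to the lung site (SE 0.28, adjusted p = 0.00360), and 1 of its 3 subcutaneous values exceeded background. Cdkn3, a phosphatase that acts on Cdk2, was the other gene that rose in the lung against the subcutaneous site, at least 1.29-fold higher since it was not well above background under the skin, and the list's count was 1 without lung replicate 1. Cdkn2b, which encodes p15, was not well above background on any array.

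Of the 7 genes of the CDK-activating kinase and the phosphatase and kinase that act on CDKs, Cdc25a and Cdk7 fell under the skin against the dish. Cdc25a, a phosphatase that activates Cdk2, fell by 2.24 (SE 0.47, adjusted p = 0.00634) and stood 2.12 higher in lung samples than in subcutaneous ones (adjusted p = 0.00892). The fall was not called with RNA integrity as a covariate (adjusted p = 0.0953), nor the rise with the long-mRNA level (adjusted p = 0.187). Cdk7 and Cdc25c rose in the lung against the subcutaneous site too, Cdc25c at least 1.23-fold because no subcutaneous sample exceeded background. Mnat1, an assembly subunit of the CDK-activating kinase, fell in the lung, with a log2 difference of -1.01 from the subcutaneous site (adjusted p = 0.0300) and of -1.10 from the dish (adjusted p = 0.0358). The former call was lost without subcutaneous replicate 1 or 2 or any 1 lung array, and the latter without any 1 dish or lung array. The subcutaneous count of 2 was 1 without any 1 dish array or subcutaneous replicate 2.

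Among 11 relatives of Rb1 and E2f1, Rbl2, which encodes the pocket protein p130 found with E2f4 in resting cells, rose under the skin against the dish by 1.57 (SE 0.25, adjusted p = 0.00111), in all 19 alternatives. E2f5, a partner of p130, was the other gene that rose there. Going from the subcutaneous site to the lung, Rbl2 and Tfdp2 fell and E2f4 and E2f8 rose. E2f4 rose by 1.61 (SE 0.33, adjusted p = 0.00598, but 0.185 with the long-mRNA level as a covariate). Tfdp2, a DNA-binding partner of E2Fs, was not well above background in the lung, and its fitted difference of -1.33 (adjusted p = 0.0257) lost the call without subcutaneous replicate 2 or 3 or lung replicate 1. The count of 4 was 2 without subcutaneous replicate 2 or lung replicate 1. E2f4 (1.22, adjusted p = 0.0438) and E2f5 (0.91, adjusted p = 0.0408) rose in the lung against the dish. Both lost the call without any 1 dish array and without lung replicate 1 or 2, and E2f4 also without subcutaneous replicate 2.

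Of 8 subunits of ubiquitin ligases that act on D cyclins, p27 or related regulators, 1 fell under the skin against the dish. This was Fzr1 (Cdh1), which directs the anaphase-promoting complex to its targets in G1, at -2.25 (SE 0.35, adjusted p = 0.000913). Removing lung replicate 2 raised the count to 2, and removing lung replicate 3 raised it to 3. Against the subcutaneous site, Fzr1 in the lung rose by 2.25 (SE 0.35, adjusted p = 0.00126), and Fbxw7 and Fbxw8 rose too, although Fbxw7 was not well above background on any of the 9 arrays. Between lung and dish 0 of 8 were called in the limma model, and 4 of 8 had an unadjusted p under 0.05, against 21.9% of all genes.

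The genes of DNA replication that E2F factors switch on were measured for 16 of 18. Under the skin against the dish 8 of 16 fell and 0 rose, with a median log2 difference of -0.97. Mcm5, a subunit of the replicative helicase, fell by 2.36 (SE 0.24, adjusted p = 4.28e-05). Between subcutaneous and lung samples 4 of 16 rose in the lung, with a median of 0.64 against -0.07 over all genes. Cdc6, which loads that helicase, rose by 1.99 (SE 0.29, adjusted p = 0.000940), and the others were Mcm2, Mcm5 and Orc1, of which Orc1 exceeded background in 1 lung sample and in 0 subcutaneous samples. Removing subcutaneous replicate 2 or either of lung replicates 1 and 2 cut the count of 4 to 2. Mcm5 was also lower in the lung than in the dish, by a log2 difference of -0.91 (adjusted p = 0.0380), and this call was lost without any 1 dish or lung array.

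**Figure D5:**
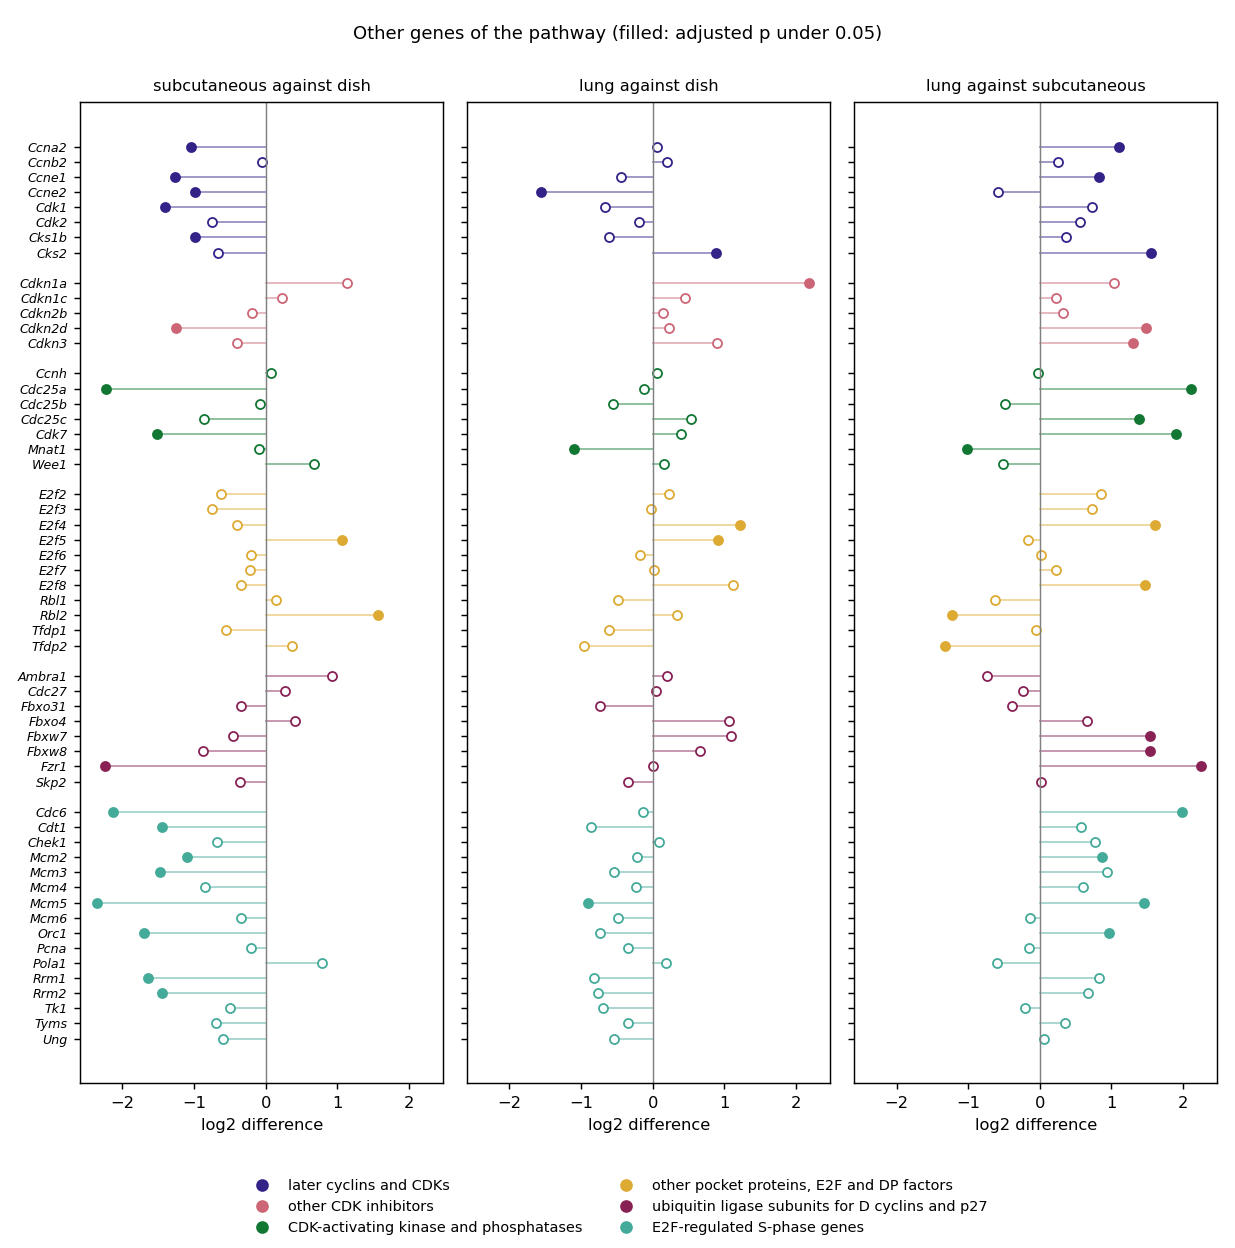
Log2 differences (horizontal axes) of the 55 measured genes of the 6 pathway lists, 1 gene per line with a colour for each list, in the 3 comparisons, where filled points have an adjusted p under 0.05. In the panel of subcutaneous against dish 17 filled points lie left of 0 and 2 right of it, and in that of lung against subcutaneous 3 lie left and 17 right.

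Other measures moved with the groups. Of the 3 markers of the carcinoma line, Krt8 and Vim were above background on all 9 arrays, and Krt18 on 0 dish, 3 subcutaneous and 2 lung arrays. Krt18 read 5.27 to 5.98 in the dish, 10.99 to 11.06 under the skin and 7.23 to 8.66 in the lung. All 3 rose under the skin against the dish, and Krt18 and Vim fell in the lung against the subcutaneous site. Of 8 fibroblast markers, Dcn, Lum and Dpt rose under the skin against the dish and Pdgfrb fell, while Col1a1, Col1a2, Col3a1 and Mfap5 were not above background on any array. The log2 of the list's summed signal was 16.5 to 17.2 under the skin, 8.95 to 9.40 in the dish and 10.9 to 14.0 in the lung. Of 9 alveolar type II markers, 6 rose in the lung against the subcutaneous site, with a log2 summed signal of 13.6 to 16.5 in the lung, 8.72 to 9.30 under the skin and 8.13 to 8.61 in the dish. Sftpd, Slc34a2, Lamp3 and Napsa of that list were not above background on any array.

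All 9 endothelial markers, 10 of 11 lymphocyte markers and 7 of 10 macrophage markers were not above background on any array. Of the other macrophage markers, Cd14 exceeded it on all 9 arrays, Mrc1 on 1 lung array and Lyz2 on 2 lung arrays, and Lyz2 rose in the lung against both other groups. Lyz2 read 9.68, 6.32 and 10.04 in the lung and 5.28 to 6.66 elsewhere. The airway secretory list reached a log2 summed signal of 7.39 to 14.5 in the lung, against 6.36 to 6.74 in the dish and 6.50 to 6.98 under the skin. The array's hybridization controls averaged 12.7 to 13.0 under the skin, 11.9 to 12.2 in the dish and 10.9 to 11.6 in the lung, so they separated the groups as well. The RNA integrity number was 8.4 to 8.6 in the dish, 7.5 to 8.6 under the skin and 7.9 to 8.3 in the lung. The part of these measures in the differences of the 9 genes was not tested, except for integrity as a covariate. It left all 5 calls of subcutaneous against dish in place and 4 of the 6 calls of lung against subcutaneous, losing Ccnd2 (0.77, adjusted p = 0.0513) and Cdkn1b (-1.05, adjusted p = 0.0743).

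Genes with the pattern most like each gene were sought among 6310 others above background on all arrays of at least 1 group, by Pearson's r over the 9 arrays, which share their groups and scaling. For Cdkn2c the 3 nearest were Apcdd1 (r = 0.986), Kiz (r = 0.985) and Kxd1 (r = 0.983). The nearest to Ccnd2 was Mrpl51 (r = 0.983), to Ccnd3 Alas1 (r = 0.986), to Cdk4 Prmt7 (r = 0.987) and to Cdk6 Slain2 (r = 0.989). E2f1, which differed least between groups of the genes above background, had its nearest gene, Washc5, at r = 0.904. Apcdd1 read 13.11, 13.40 and 12.77 under the skin, and between 9.61 and 11.13 on the other 6 arrays. Slain2 read 14.88, 14.71 and 13.65 in the lung, so that its lung replicate 3, as for Cdk6, lay within the range of the dish samples, 13.49 to 13.96.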

How the data were processed

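The 9 arrays (3 per group) were grouped by the labels' conditions. The deposited values are log2 signals, 1 column per array, per the labels' protocols from biotin-labelled sense cDNA. How the authors normalized and summarized the probes, and on which build, is not given in the sources used here. Of 28846 rows, 19572 features carried 1 gene symbol in the platform annotation, all matched by gene number, and the feature with the highest mean stood for each of 19505 genes (55 had several). The 5222 negative controls set background. No 2 arrays of a group held the same values.

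Differences were fitted in R 4.3.3 by limma 3.58.1 (functions lmFit and eBayes, 3 group means, 9 arrays, two-sided, 6 residual and 7.08 prior degrees of freedom), with Benjamini-Hochberg adjustment over all genes and calls under 0.05. The fit was tested on simulated data. The members, lists and tests were chosen with earlier results of these data known. Of the pathway lists, the called gene with the largest rise and fall in each list and comparison was named, plus Cdkn1a, Cdkn2b, Ccne1 and Ccne2; other called genes of lists with few calls were named after their values were seen. Listed genes without a value were not analysed here. Alternatives were other scalings, a filter on dim genes, an intensity trend, array weights, 2-group fits, a replicate block, covariates, and leaving out each array. Promoter windows came from RefSeq. With 3 arrays a group, the number of arrays limits precision.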

Additional observations from a re-analysis of the deposited data

Results flagged for a closer look

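Among the 9 measured members and 55 pathway genes, 13 were flagged. Their fitted lung and subcutaneous differences from the dish had opposite signs. Their lung against subcutaneous difference, which is the test of that contrast, also passed the threshold. Of all genes, 15.0% passed that threshold, and the share that also had opposite signs was not computed. Cdk6 was 0.95 above the dish in the lung and -0.43 from it under the skin, a difference of 1.37 (adjusted p = 0.0183). It came with the level of very long mRNAs on lung replicates 1 and 2, as given in the report. For Fzr1 the lung matched the dish (0.00) and the subcutaneous difference was -2.25, so the difference of 2.25 (adjusted p = 0.00126) is that of the subcutaneous site from the rest. Ccna2 was likewise at 0.05 and -1.05, a difference of 1.10 (adjusted p = 0.00886).

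Cks2 was at 0.89 and -0.66, a difference of 1.55 (adjusted p = 0.00131), and E2f4 at 1.22 and -0.40, a difference of 1.61 (adjusted p = 0.00598). Cdkn2d was at 0.23 and -1.25, a difference of 1.48 (adjusted p = 0.00360), and Cdk7 at 0.39 and -1.52, a difference of 1.91 (adjusted p = 0.00648). Cdkn3 was at 0.90 and -0.40, a difference of 1.30 (adjusted p = 0.0128), and Cdc25c at 0.53 and -0.86, a difference of 1.39 (adjusted p = 0.00772). E2f8 was at 1.13 and -0.35, a difference of 1.47 (adjusted p = 0.0131), and Fbxw8 at 0.67 and -0.87, a difference of 1.54 (adjusted p = 0.00394). Fbxw7, not well above background on any array, was at 1.09 and -0.45, a difference of 1.54 (adjusted p = 0.00863). Tfdp2, not well above background in the lung, was at -0.96 and 0.37, a difference of -1.33 (adjusted p = 0.0257). Of these 13 genes, Cks2 and E2f4 in the lung, and Ccna2, Cdkn2d, Cdk7 and Fzr1 under the skin, also differed from the dish at the threshold, and none did so in both.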

How the results depend on the processing

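Of 504 values of the 9 genes under alternatives, 454 kept their direction and side of the threshold, 28 lost a call, 9 gained one and 13 changed sign; all 28 losses were in lung against subcutaneous. Genes called numbered 2927 for lung against subcutaneous (1093 with long-mRNA level as a covariate, 1476 to 2928 when leaving out 1 array), 1322 for lung against dish (2352 with a common upper quartile, 3039 with array weights, 856 with RNA integrity and 116 with long-mRNA level as covariates, 514 to 1442 leaving out 1 array) and 2513 for subcutaneous against dish (1280 with RNA integrity, 1639 to 2738 leaving out 1 array). Of the 9 genes, 6 were called between the lung and subcutaneous sites (2 with the long-mRNA covariate, 1 to 6 leaving out 1 array, with 1 without lung replicate 1 and 3 without subcutaneous replicate 2 or 3) and 0 for lung against dish (1 with a common upper quartile, 2 with array weights, 0 to 1 leaving out 1 array). Pathway calls numbered 20 between the lung and subcutaneous sites (8 with long-mRNA level, 13 to 24 leaving out 1 array), 7 for lung against dish (14 with a common upper quartile, 13 with the filter, 18 with array weights, 3 with integrity, 0 with long-mRNA level, 2 to 9 leaving out 1 array) and 19 for subcutaneous against dish (8 with integrity). None of the 13 values that changed sign was called. For lung against dish they were Cdkn2c (-0.014 with a common upper quartile, -0.16 with long-mRNA level, and -0.073 to 0.69 leaving out 1 array), Rb1 (-0.16 and -0.61 in the same settings, and -0.0091 to 0.46 leaving out 1 array), and Cdk6 (-0.30) and Cdkn1b (-0.41) with long-mRNA level. For subcutaneous against dish E2f1 was -0.019 with quantile normalization, -0.022 with a common upper quartile, -0.018 with array weights, and -0.14 to 0.12 leaving out 1 array. Outside the 9 genes, Cdkn2b in lung against dish changed sign as well (-0.20 with a common upper quartile, -0.012 with integrity, -0.38 with long-mRNA level, and -0.0066 to 0.26 leaving out 1 array). The cause of these changes was not tested. Same-numbered samples did not deviate together over all genes (correlations of -0.057 to 0.085). Whether they were handled together is not given in the labels and cannot be told from these values. With the replicate block, the 9 genes had 6 calls between lung and subcutaneous samples, 0 between lung and dish and 6 between subcutaneous and dish. The added call was Rb1 (adjusted p = 0.0495). Signals near the negative controls limit Cdkn1b, Rb1, Cdkn2a and E2f1.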

Other observations

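The measured neighbours of Cdkn2a on chromosome 4 were looked at after the low Cdkn2a signal was seen, in the gene order of RefSeq. Mtap, an enzyme of methionine salvage and the nearest of these neighbours on the proximal side, read 15.14 to 15.77 on all 9 arrays. Cdkn2b, Dmrta1, Zfp352 and Izumo3 on the other side, and Ifne, Ifna1 and Ifna4 beyond Mtap, were above background on 0 of 9 arrays. The signal of Cdkn2a was 2.51 to 3.24 and that of Cdkn2b 4.36 to 5.21.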
